A study of Mus musculus with 22 samples.

Results

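Chondroitin sulfate is the sulfated sugar chain that fills cartilage with water, and most of it hangs on aggrecan, the large proteoglycan encoded by Acan. Described here are 10 genes of its synthesis and sulfation, taken as the rows of the deposited count tables whose symbol is exactly Xylt1, Xylt2, Csgalnact1, Csgalnact2, Chsy1, Chsy3, Chst3, Chst11, Slc26a2 or Papss2. All 10 were found in each table, among 34866 gene rows in the culture tables and 23911 in the main cartilage table. The rule matches names only and uses no measured value, but the list of names was drawn up with earlier results of these data known.

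The study measured RNA in 22 mouse samples in 6 groups. Control mice carried Dnmt1 flox, in which the gene of the maintenance DNA methyltransferase is flanked by loxP sites, and no Cre is given in their labels. The conditional knockout (cKO) was Prrx1-Cre;Dnmt1 flox/flox, in which Cre is driven by the promoter of Prrx1, active in limb bud mesenchyme and so in more cell types than the chondrocyte. For cartilage the labels give these genotypes only as flox and cKO. The cultures were primary chondrocytes from knee articular cartilage of mice at postnatal day 3 to 5. At day 0 there were 3 control and 3 cKO samples, for which the labels give no treatment, and at day 3 there were 4 control and 4 cKO samples after bone morphogenetic protein 2 (BMP2), which drives chondrocyte differentiation, given in the labels as 100 ng/µl. The cartilage came from postnatal day 5 mice and was treated with collagenase, with 2 males and 2 females of each genotype. The labels call the culture samples biological replicates but do not say whether they came from separate animals, so p-values measure the spread between these samples.

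In the pathway, xylosyltransferases (Xylt1, Xylt2) attach the first sugar of the chain to a serine of the core protein, and other enzymes complete a short linker. The N-acetylgalactosaminyltransferases Csgalnact1 and Csgalnact2 then commit the linker to chondroitin, and the synthases Chsy1 and Chsy3 help to extend the chain with alternating sugars. Sulfate enters the cell through the transporter Slc26a2, is activated by the PAPS synthases (Papss2, and its relative Papss1), and is placed on the chain by Chst11 at carbon 4 and by Chst3 at carbon 6 of N-acetylgalactosamine. Loss of several of these genes, Slc26a2, Papss2, Xylt1 and Csgalnact1 among them, is known to cause short stature or skeletal dysplasia in people or mice.

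On the build GRCm38, with GENCODE M21 positions, Xylt1 lies at chr7:117380979-117673580, Xylt2 at chr11:94663851-94677515, Csgalnact1 at chr8:68356781-68735146, Csgalnact2 at chr6:118107452-118139140 and Chsy1 at chr7:66109515-66173798. Chsy3 lies at chr18:59175401-59535999, Chst3 at chr10:60181532-60219260, Chst11 at chr10:82985498-83195900, Slc26a2 at chr18:61192919-61211612 and Papss2 at chr19:32595790-32667187. All 10 are annotated as protein-coding. Among the exons of the members, only those of Chsy1 overlap exons of another annotated gene, the antisense gene Gm26827 on the opposite strand. Whether the counting used strand is not given in the sources used here, so reads of Chsy1 and Gm26827 might not be told apart.

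Levels are given in TMM-scaled counts-per-million units (CPM). The day 0 libraries held 41749327 to 51741478 estimated counts each, the day 3 libraries 14434197 to 18918714 and the cartilage libraries 1100198 to 1888896. The lowest count of any member was 280 at day 0, 39 at day 3 and 8 in cartilage. Dnmt1, the targeted gene, was lower in every cKO library than in every control library of the same setting. It measured 26.8 to 32.8 against 153 to 166 CPM at day 0 and 10.9 to 35.7 against 63.3 to 81.5 CPM at day 3. In cartilage it measured 11.8 to 14.3 against 34.5 to 48.6 CPM. In a second deposited table, with estimated counts of the same cartilage libraries, it measured 26.5 to 33.4 against 44.1 to 62.5 CPM. The cartilage log2 fold change of Dnmt1 was −1.66 in the main table and −0.78 in the estimated counts. The summed level of 16 chondrocyte markers, all of them above the floor of 3 counts in each group, ran from 163300 to 172800 CPM in day 0 controls and from 56810 to 69490 CPM in day 0 cKO. At day 3 it ran from 105800 to 131000 CPM in controls and from 1767 to 19280 CPM in cKO, and in cartilage from 78330 to 115400 CPM in controls and from 38820 to 72350 CPM in cKO. Replicate 4 of the day 3 cKO group stood apart from the other libraries. It had the lowest chondrocyte marker sum, 1767 CPM against 13770 to 19280 CPM in the other 3, and comparing its counts with each of theirs gave chi-square values of 123.9 to 138.4 per degree of freedom, where those 3 gave 7.42 to 10.9 among themselves. The day 3 values of the members called are also given without it.

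In control chondrocytes at day 0 the genes spanned a wide range of levels. On the scale of CPM per kilobase of exon, which allows genes to be compared in the cultures, the order ran from Papss2 at 345.6 ± 9.53 (SD, n = 3) through Chst11 at 123.6 ± 1.67, Xylt1 at 97.1 ± 0.55, Csgalnact1 at 68.2 ± 0.656, Chsy1 at 50.1 ± 2.7, Slc26a2 at 45.2 ± 0.673 and Csgalnact2 at 13.7 ± 0.525, to Chsy3 at 5.45 ± 0.193, Xylt2 at 5.32 ± 0.194 and Chst3 at 1.26 ± 0.0558. Chsy3 and Xylt2 differed by less than their SD. Within each pair of like enzymes among these 10 genes, 1 carried most of the signal. In day 0 cKO the order was Papss2 at 89.2 ± 10.7, Chst11 at 41.5 ± 3.51, Xylt1 at 35.6 ± 4.75, Csgalnact1 at 28.4 ± 3.71, Chsy1 at 26.8 ± 2.25, Slc26a2 at 17.9 ± 2.03, Csgalnact2 at 12.3 ± 0.0918, Xylt2 at 5.18 ± 0.124, Chsy3 at 3.28 ± 0.0977 and Chst3 at 1.11 ± 0.0621 CPM per kilobase, with Csgalnact1 and Chsy1 closer than their SD.

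The first comparison asked how the genes differed between cKO and control chondrocytes at day 0. Of the members, 8 were lower in cKO and 0 were higher at an adjusted p under 0.05. Across all 15530 genes tested, 31.6% were called lower and 33% higher, so a call alone was common. The median log2 fold change (cKO over control) was −1.09 over the 10 members and 0.01 over all genes tested. The genes called lower by the largest factors were the sulfate activator Papss2 (3.89-fold), the 4-O-sulfotransferase Chst11 (2.99-fold), the chain initiator Xylt1 (2.73-fold), the sulfate transporter Slc26a2 (2.53-fold) and the chain committing enzyme Csgalnact1 (2.41-fold). In bulk samples, fewer cells of a type and less RNA per cell cannot be told apart.

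**Figure D1:**
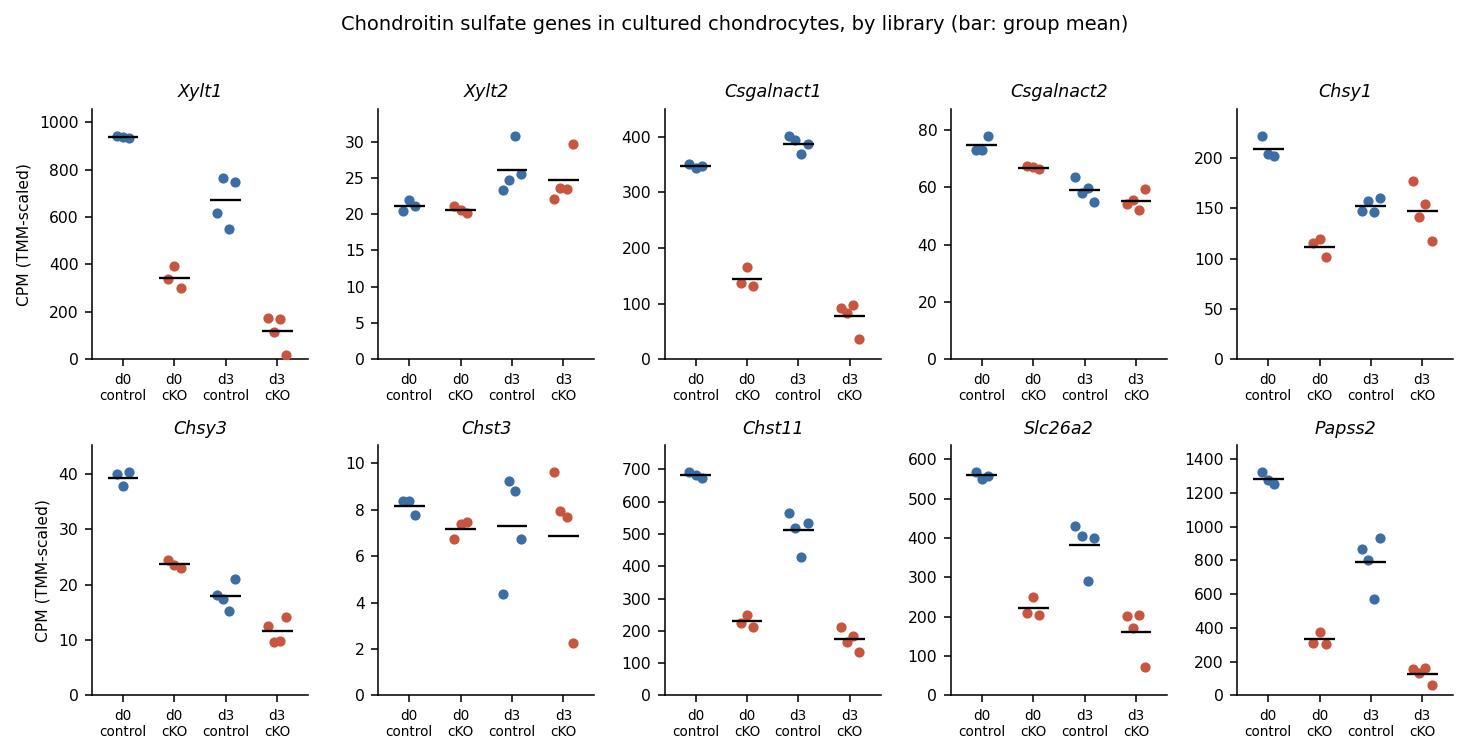
Level of each gene in the 14 culture libraries, in TMM-scaled CPM (vertical axes start at 0 and differ between genes), with day 0 (d0) and day 3 (d3) control libraries in blue, cKO libraries in red and the group mean as a bar. Xylt1, Csgalnact1, Chst11, Slc26a2 and Papss2 lie far lower in cKO at both days, while Xylt2, Csgalnact2 and Chst3 lie close together.

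The chain initiators went apart. Xylt1 measured 941.9, 936.8 and 931.3 CPM in the day 0 controls and 339.3, 391.6 and 300.2 CPM in the day 0 cKO libraries. The highest cKO library was far under the lowest control, and the fitted log2 fold change was −1.45 (SE 0.083, adjusted p = 8.04e-07). Its relative Xylt2, the isoform known from many tissues outside cartilage, measured 20.41 to 21.95 CPM in controls and 20.1 to 21.1 CPM in cKO, with overlapping groups and a log2 fold change of −0.04 (95% interval −0.16 to 0.07, adjusted p = 0.474).

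The enzymes that start the chondroitin chain proper showed a like contrast. Csgalnact1 measured 350.8, 344.2 and 346.7 CPM in controls and 136.1, 166.3 and 131.6 CPM in cKO at day 0, and fell by 1.27 on the log2 scale (SE 0.0771, adjusted p = 1.11e-06). Csgalnact2 measured 73.1, 72.9 and 77.9 CPM in controls and 67.3, 67.0 and 66.3 CPM in cKO. The Csgalnact2 groups did not overlap, but the difference was small, at a log2 fold change of −0.16 (SE 0.0361, adjusted p = 0.00349). It was no longer called with plain library totals as the scaling (−0.05, adjusted p = 0.221) or in the fit of all 14 culture samples (−0.16, adjusted p = 0.0583).

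Both synthases were lower in day 0 cKO. Chsy1 measured 222.1, 203.7 and 201.6 CPM in controls and 115.2, 119.0 and 101.1 CPM in cKO, a log2 fold change of −0.91 (SE 0.0625, adjusted p = 2.29e-06). Chsy3 measured 40.0, 37.8 and 40.4 CPM in controls and 24.5, 23.5 and 23.1 CPM in cKO, a log2 fold change of −0.74 (SE 0.0469, adjusted p = 1.45e-06). In each gene every cKO library was under every control library.

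Of the sulfotransferases, Chst11 measured 691.7, 684.2 and 673.4 CPM in day 0 controls and 225.6, 250 and 211.7 CPM in cKO. The groups were far apart, and its log2 fold change was −1.58 (SE 0.0578, adjusted p = 5.67e-08). Chst3 was near the bottom of the range in both genotypes, at 7.76 to 8.39 CPM in controls and 6.73 to 7.47 CPM in cKO. Its groups did not overlap, yet its log2 fold change of −0.19 (95% interval −0.37 to −0.01) did not pass after adjustment (adjusted p = 0.0668).

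The sulfate supply genes were lower too. Slc26a2, the transporter known from diastrophic dysplasia, measured 567.5, 550.8 and 559.0 CPM in day 0 controls and 210.6, 250.3 and 203.7 CPM in cKO, a log2 fold change of −1.34 (SE 0.0702, adjusted p = 4.97e-07). Papss2 measured 1324, 1279 and 1255 CPM in controls and 312.6, 377.3 and 305.3 CPM in cKO, a log2 fold change of −1.96 (SE 0.0784, adjusted p = 9.77e-08). This was the member with the largest fall at day 0, and its highest cKO library was far under its lowest control. Papss1, the other PAPS synthase, fell by 0.86 on the log2 scale (SE 0.0425, adjusted p = 3.67e-07), from 138.1 ± 4.06 to 76.3 ± 4.03 CPM (SD, n = 3 each).

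After 3 days of BMP2, 6 members were lower in cKO and 0 were higher, where 22.6% of 13924 genes tested were called lower and 25.5% higher. The median log2 fold change was −0.92 over the members and 0.01 over all genes. The genes called were Papss2, Xylt1, Csgalnact1, Chst11, Slc26a2 and Chsy3. The count was also 6 without replicate 4 of the cKO group. The 10 members together held 0.253 to 0.327% of all counts in the control libraries, 0.0964 to 0.121% in cKO replicates 1 to 3 and 0.0539% in cKO replicate 4.

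Xylt1 measured 617.8, 765.2, 547.0 and 747.5 CPM in the day 3 controls and 172.7, 114.2, 167.1 and 16.1 CPM in cKO replicates 1 to 4. Replicate 4 was lowest by a wide margin, though the other 3 were also all under the lowest control. The log2 fold change was −2.50 (SE 0.588, adjusted p = 0.00801), and −2.14 (adjusted p = 1.14e-05) without replicate 4. Xylt2 measured 23.4 to 30.8 CPM in controls and 22.2 to 29.6 CPM in cKO, with a log2 fold change of −0.06 (95% interval −0.36 to 0.23, adjusted p = 0.716).

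Csgalnact1 measured 401.8, 394.9, 368.4 and 387.2 CPM in controls and 92.1, 83.3, 97.7 and 35.5 CPM in cKO at day 3. Its log2 fold change was −2.32 (SE 0.274, adjusted p = 0.000259), and −2.09 (adjusted p = 7.12e-08) without cKO replicate 4. The groups were far apart, whereas those of Csgalnact2 overlapped at 55.0 to 63.4 CPM in controls and 52.1 to 59.2 CPM in cKO. The Csgalnact2 value was −0.08 (95% interval −0.24 to 0.09, adjusted p = 0.4).

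Of the synthases, Chsy1 measured 146.9, 157.0, 146.4 and 159.9 CPM in controls and 177.0, 141.1, 154.7 and 117.7 CPM in cKO. The cKO libraries lay on both sides of the controls, and the log2 fold change was −0.03 (95% interval −0.29 to 0.23, adjusted p = 0.831), or 0.05 (adjusted p = 0.67) without cKO replicate 4. Chsy3 measured 18.2, 17.4, 15.3 and 21.1 CPM in controls and 12.5, 9.73, 9.91 and 14.2 CPM in cKO. Its groups did not overlap, and it fell by 0.62 on the log2 scale (SE 0.16, adjusted p = 0.0129). For Chsy3 the value was −0.75 (adjusted p = 0.00151) without cKO replicate 4, which had the highest cKO level of this gene.

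Chst11 measured 566.0, 519.5, 428.2 and 533.6 CPM in day 3 controls and 211.6, 165.4, 183.6 and 134.5 CPM in cKO, a log2 fold change of −1.54 (SE 0.146, adjusted p = 8.59e-05), and −1.45 (adjusted p = 9.94e-06) without cKO replicate 4. No cKO library came near the lowest control. Chst3 measured 4.39, 9.23, 8.83 and 6.73 CPM in controls and 9.62, 7.95, 7.67 and 2.25 CPM in cKO. The lowest and the highest library were both cKO, and the log2 fold change of −0.08 had a 95% interval from −1.003 to 0.85 (adjusted p = 0.89). Without cKO replicate 4, the lowest library, it was 0.20 (adjusted p = 0.511).

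Slc26a2 measured 430.9, 404.6, 289.6 and 400.5 CPM in day 3 controls and 202.7, 170.0, 204.1 and 72.2 CPM in cKO, a log2 fold change of −1.22 (SE 0.296, adjusted p = 0.00918). Without cKO replicate 4, the lowest library, the value was −0.99 (adjusted p = 0.000262). Papss2 measured 866.2, 802.6, 569.5 and 935.9 CPM in controls and 157.3, 129.7, 161.4 and 60.4 CPM in cKO. It had the largest fitted fall of the members at day 3, 6.19-fold, with a log2 fold change of −2.63 (SE 0.305, adjusted p = 0.000239), and −2.41 (adjusted p = 4.44e-06) without cKO replicate 4. Papss1 fell by 1.05 on the log2 scale (SE 0.085, adjusted p = 3.99e-05), from 124.9 ± 7.99 to 59.6 ± 6.32 CPM (SD, n = 4 each), and the value was −0.99 (adjusted p = 2.41e-06) without cKO replicate 4.

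The falls of the members stood beside those of the chondrocyte markers. Of 16 markers, 15 were called lower in cKO at day 0 and 14 at day 3, and the median of the list was −1.85 and −3.02. Acan itself fell by 1.40 at day 0 (SE 0.0995, adjusted p = 2.75e-06) and by 2.78 at day 3 (SE 0.619, adjusted p = 0.00618) on the log2 scale. Without cKO replicate 4 the day 3 value was −2.42 (adjusted p = 1.36e-05). Sox9, the master transcription factor of chondrocytes, fell by 0.71 at day 0 (adjusted p = 4.81e-06), and its day 3 value was −1.45 (adjusted p = 0.0315). The day 3 call of Sox9 was lost in 5 of 8 fits with a library omitted (without any 1 of the 4 controls, or without cKO replicate 2), with adjusted p up to 0.0649. In the fit of all 14 culture samples the day 0 calls of Acan (−1.40, adjusted p = 0.0634) and Sox9 (−0.71, adjusted p = 0.217) were lost.

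Markers of other cell types moved with genotype as well. The summed level of 10 muscle cell markers was 7.95 to 9.07 CPM in day 0 controls and 57.0 to 63.5 CPM in day 0 cKO. At day 3 this sum was 0.725 to 1.62 CPM in controls, 860.4 to 1436 CPM in cKO replicates 1 to 3 and 107.2 CPM in cKO replicate 4. Of these 10 markers, 5 and 6 were above 3 counts in day 0 control and cKO, and 3 and 8 in day 3 control and cKO. Myf5 and Pax7 were at 0 in every control library of both days, as was Actc1 at day 3, and Myf5 was at 0 in every day 3 cKO library. Sums of 7 osteoblast markers ran from 3684 to 5066 CPM in day 3 controls and from 6802 to 8704 CPM in day 3 cKO, and those of 8 hypertrophic markers from 521.6 to 973.6 CPM and from 4083 to 5130 CPM, with all markers of both lists above 3 counts. At day 0 these sums ran from 1596 to 2826 CPM in controls and from 1188 to 1523 CPM in cKO for osteoblast markers, and from 1587 to 1625 CPM and from 1077 to 1219 CPM for hypertrophic markers. Osteoclast markers (6 of 8 above 3 counts in controls and 7 in cKO) summed to 200.7 to 204.2 CPM in day 0 controls and 113.7 to 125.8 CPM in day 0 cKO. At day 3 (5 and 6 of 8 above 3 counts) the osteoclast sum was 149.6 to 175.4 CPM in controls. It was 139.4 to 155.6 CPM in cKO replicates 1 to 3 and 398.4 CPM in cKO replicate 4. At day 3 adipocyte markers (3 of 7 above 3 counts in controls and 6 in cKO) summed to 14.01 to 21.59 CPM in controls and 46.8 to 68.7 CPM in cKO, and fibroblast and tendon markers (6 of 8 in controls and 7 in cKO) to 6252 to 7904 CPM and 8686 to 9941 CPM. The fibroblast and tendon sum went the other way at day 0, at 2799 to 4393 CPM in controls and 2154 to 2355 CPM in cKO. Endothelial and blood cell marker sums were also higher in every cKO culture library than in every control of the same day, but none was above 19.14 CPM. The part of these cell type markers in the results of the members was not tested.

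The sequences just upstream of the starts of Chst11 and Papss2 are shown because these were the members with the largest falls called in both cultures that have an entry in the RefSeq promoter table of GRCm38.p6, and because the deleted enzyme methylates cytosine in CG dinucleotides. DNA methylation itself was not analysed here. Of the 10 members, 6 matched an entry by symbol, and Xylt1, Csgalnact1, Chsy3 and Slc26a2 did not. Each sequence is the 250 bases before a start, on the plus strand, with every CG in capitals. Chst11 lies at chr10:82985247-82985496, the upstream start of Papss2 at chr19:32595465-32595714 and its downstream start, inside the gene, at chr19:32619755-32620004.
Chst11: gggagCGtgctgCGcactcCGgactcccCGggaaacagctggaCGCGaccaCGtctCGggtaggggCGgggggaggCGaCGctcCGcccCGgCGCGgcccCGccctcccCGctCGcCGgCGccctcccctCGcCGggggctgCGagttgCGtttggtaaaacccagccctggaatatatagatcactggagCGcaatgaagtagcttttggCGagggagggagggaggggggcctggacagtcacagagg
Papss2, upstream start: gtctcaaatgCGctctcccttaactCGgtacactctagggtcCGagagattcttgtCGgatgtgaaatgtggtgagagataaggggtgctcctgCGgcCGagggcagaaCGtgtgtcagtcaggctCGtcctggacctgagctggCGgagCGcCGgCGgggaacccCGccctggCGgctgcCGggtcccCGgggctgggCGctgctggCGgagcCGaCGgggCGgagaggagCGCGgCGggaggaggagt
Papss2, downstream start: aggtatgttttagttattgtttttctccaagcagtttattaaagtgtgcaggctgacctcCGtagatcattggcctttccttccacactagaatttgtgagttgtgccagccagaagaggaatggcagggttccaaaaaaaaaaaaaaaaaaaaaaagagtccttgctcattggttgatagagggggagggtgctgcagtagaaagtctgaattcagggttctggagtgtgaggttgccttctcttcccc
The Chst11 sequence holds 26 CG, the upstream Papss2 sequence 24 and the downstream Papss2 sequence 1. In the full window of the table, which adds the 50 bases after the start, the counts were 34, 27 and 1, against a median of 7 over all 32851 windows of 300 bases. As many CG or more were found in 7.73, 15.5 and 94.6% of all windows, in the same order. The gene counts do not separate transcripts from the 2 Papss2 starts.

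The other members with an entry were also above the median of 7 CG. The full windows held 23 CG for Xylt2, 22 for Chst3, 34 for Chsy1, and 24 and 32 for the 2 starts of Csgalnact2. The motifs bound by SOX factors, ACAAAG and ACAATG, were searched on both strands of the full windows. ACAAAG was found once at Chst3 and ACAATG once at Xylt2, and neither was found in the windows of Chst11, Papss2, Chsy1 or Csgalnact2. Over all windows, ACAAAG was present in 18.7% and ACAATG in 12.6%. A match or its absence is a description of the letters in these windows.

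In cartilage of postnatal day 5 mice, none of the 10 members was called in either direction by edgeR (0 higher, 0 lower), while edgeR called 3.15% of all 8793 tested genes higher and 3.04% lower. At an unadjusted p under 0.05 there was 1 member, Chsy3, and DESeq2 called 0. The median log2 fold change was −0.17 over the members, with single values from −0.59 to 0.22, and 0.01 over all genes. All control libraries came from 1 library pool and all cKO libraries from another, so pool and genotype cannot be told apart in cartilage.

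**Figure D2:**
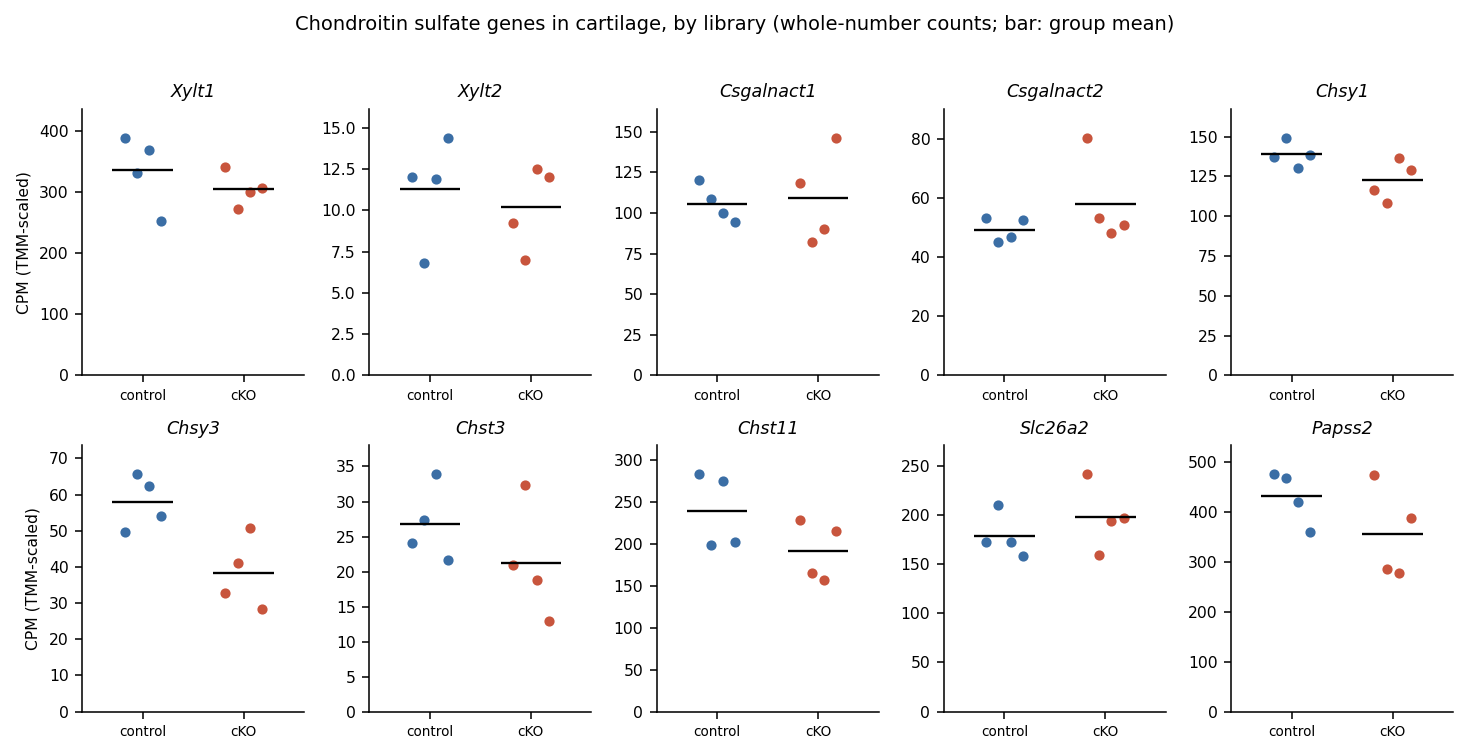
Level of each gene in the 8 cartilage libraries, in TMM-scaled CPM from the whole-number counts (vertical axes start at 0 and differ between genes), with 4 control libraries in blue, 4 cKO libraries in red and the group mean as a bar. The groups overlap for each of the 10 genes, and 1 cKO library of Csgalnact2 lies at 80.6 CPM above the rest.

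Papss2 measured 475.8, 466.7, 420.1 and 360.4 CPM in cartilage controls and 474.4, 286.0, 276.5 and 387.6 CPM in cKO, with a log2 fold change of −0.27 (95% interval −0.62 to 0.08, adjusted p = 0.357). The first cKO library was as high as the highest control. Xylt1 measured 389.5, 331.9, 368.7 and 252.8 CPM in controls and 340.9, 272.9, 299.7 and 306.7 CPM in cKO, with a log2 fold change of −0.13 (95% interval −0.44 to 0.18, adjusted p = 0.643). All cKO levels of Xylt1 lay within the range of the controls. Csgalnact1 measured 94.2 to 120.1 CPM in controls and 82.2 to 146.4 CPM in cKO, with a log2 fold change of 0.05 (95% interval −0.32 to 0.42, adjusted p = 0.888).

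Chst11 measured 282.9, 197.9, 274.2 and 202.3 CPM in cartilage controls and 227.5, 164.4, 156.1 and 214.5 CPM in cKO, with a log2 fold change of −0.33 (95% interval −0.68 to 0.03, adjusted p = 0.269). Slc26a2 measured 158.1 to 209.9 CPM in controls and 159.2 to 241.8 CPM in cKO, with a log2 fold change of 0.16 (95% interval −0.15 to 0.47, adjusted p = 0.561). The upper interval bounds of Papss2, Chst11, Xylt1, Csgalnact1 and Slc26a2 lay above 0 and their lower bounds, the lowest of them −0.68, lay well above the fitted values in the day 0 cultures. Cartilage and culture libraries were made by different methods, and the difference between the genotype effects in the 2 materials was not tested.

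Chsy3 was the member closest to a call in cartilage. It measured 49.5, 65.7, 62.4 and 54.1 CPM in controls and 32.8, 41.1, 50.9 and 28.4 CPM in cKO. All but 1 of the 4 cKO libraries were under the lowest control, and the log2 fold change was −0.59 (95% interval −0.98 to −0.20, adjusted p = 0.0732). Chsy3 was called with all genes kept in place of the filter on low counts (−0.63, adjusted p = 0.0196) and when cKO replicate 3, its highest cKO library, was left out (−0.78, adjusted p = 0.0228). Its level depended on the deposited table more than that of any other member. The mean over the controls was 57.9 ± 7.43 CPM (SD, n = 4) in the whole-number counts and 1.54 ± 1.49 CPM in the estimated counts of the same libraries, a ratio of 37.5, while the ratio of the other 9 members ran from 0.958 to 1.2. Chsy3 failed the low-count filter in the estimated table, where the other 9 members were tested and 0 were called, with 3.56% of 10872 genes called higher and 3.18% lower.

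The other 4 members of the cartilage set had log2 fold changes of −0.17 for Xylt2 (95% interval −0.75 to 0.41), 0.22 for Csgalnact2 (−0.14 to 0.58), −0.18 for Chsy1 (−0.45 to 0.09) and −0.32 for Chst3 (−0.85 to 0.20). Acan had a log2 fold change of −0.45 (SE 0.173 and adjusted p = 0.142) and Col2a1, the main cartilage collagen, of −0.88 (SE 0.284, adjusted p = 0.0822). For Col2a1 every cKO library was under every control library. Col2a1 was called in 3 of 7 alternative runs, that with the estimated counts among them (−0.935, adjusted p = 0.0284). It was called in 0 of 8 fits with a library omitted. Of the 16 chondrocyte markers, 4 were called lower in cartilage, with a median log2 fold change of −0.42, and of 8 hypertrophic markers 7 were called lower, with a median of −1.35. The hypertrophic sum ran from 1272 to 2399 CPM in controls and from 307.5 to 1851 CPM in cKO, and that of the muscle markers (2 and 3 of the 7 in the table above 3 counts) from 12.8 to 15.8 CPM and from 56.2 to 87.3 CPM. Osteoclast markers (6 and 4 of 7 above 3 counts) summed to 528.3 to 888.1 CPM in controls and 388.8 to 469.7 CPM in cKO, and blood cell markers (7 and 6 of 7) to 160.6 to 781 CPM and 21.0 to 346.1 CPM. Larger sums came from osteoblast markers (5 of 7 in both groups), at 28040 to 56170 CPM in controls and 13420 to 33610 CPM in cKO. Fibroblast and tendon markers (8 of 8) summed to 32980 to 63600 CPM and 18010 to 40020 CPM. Both of these lists hold Col1a1, their groups overlapped, and 0 of their genes were called. The part of these markers in the cartilage values was not tested. The genotype effect did not pass a test of a difference between females and males for any member (0 members by edgeR and by DESeq2, 0.0114% of 8793 genes, which is 1 gene), with 2 samples of each sex and genotype. By edgeR 0 members had an unadjusted p under 0.05 in this test. The largest such difference was for Chst3, −0.81 on the log2 scale (95% interval −1.82 to 0.19, adjusted p = 0.992).

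**Figure D3:**
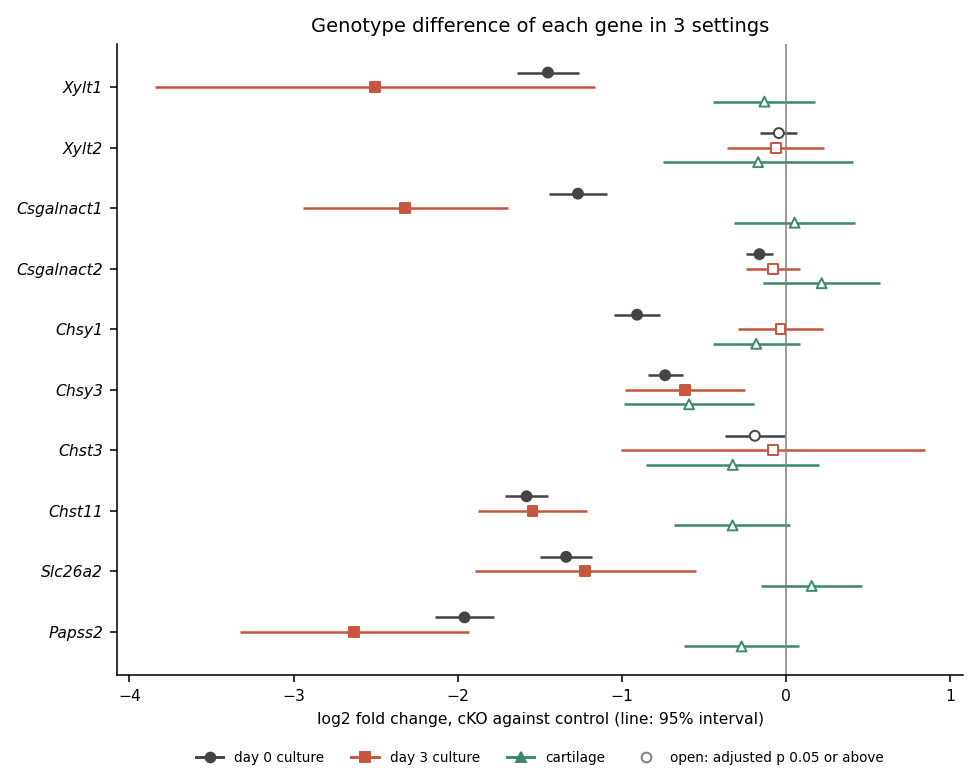
Log2 fold change of each gene, cKO against control, on the horizontal axis, with 95% intervals as lines, for day 0 cultures (circles), day 3 cultures (squares) and cartilage (triangles); open symbols did not pass an adjusted p of 0.05. Papss2, Xylt1, Csgalnact1, Chst11 and Slc26a2 lie at or below −1.22 in both cultures, and all 10 cartilage symbols are open and lie between −0.59 and 0.22.

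The change from day 0 to day 3 was then compared within each genotype in a fit of all 14 culture samples. The 2 days also differ in BMP2, in the count table and in depth, which cannot be told apart from time. In controls 5 members were lower and 1 higher at day 3, where 28.8% of 14909 genes were called lower and 28.1% higher. In cKO 6 members were lower and 2 higher, where 29.8% were called lower and 32.4% higher. The median over the members was −0.44 in controls and −0.42 in cKO.

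Chsy3 fell most in controls, from 39.4 ± 1.39 (SD, n = 3) to 17.99 ± 2.4 CPM (SD, n = 4), or by 1.13 on the log2 scale (SE 0.126, adjusted p = 8.24e-06), and fell by 1.03 in cKO (SE 0.127, adjusted p = 1.74e-05). Csgalnact2 fell by 0.34 in controls (adjusted p = 0.0003) and by 0.28 in cKO (adjusted p = 0.00122). Chst11 fell by 0.42 in controls (adjusted p = 0.0157) and by 0.40 in cKO (adjusted p = 0.0182). For Chst11 both calls were lost with library totals as the scaling (−0.29 with adjusted p = 0.1, and −0.30 with adjusted p = 0.0861), and the call in cKO was lost without day 0 cKO replicate 2 (−0.34, adjusted p = 0.0772).

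Papss2 fell by 0.70 in controls (SE 0.261, adjusted p = 0.0362) and by 1.38 in cKO (SE 0.263, adjusted p = 0.000531). The call of Papss2 in controls was lost in 5 of the 14 fits with a library omitted, those without day 0 control replicate 1, 2 or 3 or day 3 control replicate 2 or 3, with adjusted p up to 0.0963. Xylt2 was higher at day 3, by 0.30 in controls (SE 0.106, adjusted p = 0.0263) and by 0.26 in cKO (SE 0.106, adjusted p = 0.0451). These Xylt2 calls were lost in 3 of 14 such fits in controls (without day 0 control replicate 1 or 3, or day 3 control replicate 3) and in 11 of 14 in cKO, with values from 0.22 to 0.35 in controls and from 0.17 to 0.29 in cKO.

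Xylt1 and Csgalnact1 fell in cKO, with values of −1.55 (SE 0.496, adjusted p = 0.0155) and −0.91 (SE 0.24, adjusted p = 0.0052), and were not called in controls, where their log2 fold changes were −0.48 (adjusted p = 0.426) and 0.16 (adjusted p = 0.598). Slc26a2 was not called in either genotype (−0.55 with adjusted p = 0.0922 in controls and −0.45 with adjusted p = 0.158 in cKO), nor was Chst3. Leaving out day 3 cKO replicate 4, which narrows the shared spread, Xylt1 (−0.48, adjusted p = 0.00857) and Slc26a2 (−0.55, adjusted p = 0.000877) were called in controls, and Xylt2 (0.17, adjusted p = 0.0997) was not called in cKO.

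**Figure D4:**
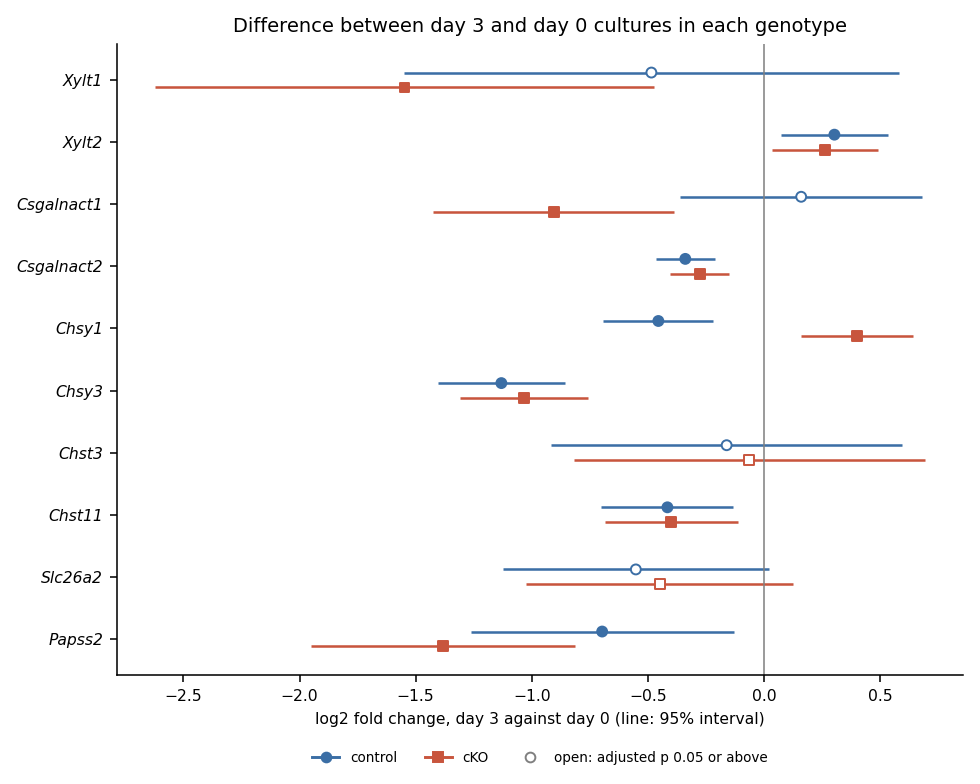
Log2 fold change of each gene, day 3 with BMP2 against day 0, on the horizontal axis, with 95% intervals as lines. Control (circles) and cKO (squares) cultures are shown, and open symbols did not pass an adjusted p of 0.05. Chsy1 is the member with filled symbols on opposite sides of 0, at −0.46 in controls and 0.40 in cKO.

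Chsy1 moved in opposite directions. It fell in controls, from 209.1 ± 11.3 to 152.6 ± 6.92 CPM, a log2 fold change of −0.46 (SE 0.11, adjusted p = 0.00317), and rose in cKO, from 111.8 ± 9.41 to 147.6 ± 24.8 CPM, a log2 fold change of 0.40 (SE 0.111, adjusted p = 0.00683), with n = 3 at day 0 and n = 4 at day 3. The difference between these changes, which equals the day 3 genotype effect minus that of day 0, was 0.86 (SE 0.156, adjusted p = 0.00315). Chsy1 passed whichever of the 14 libraries was omitted, with values from 0.75 to 0.95.

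The genotype effect of 2 members differed between the days, Chsy1 upward and Csgalnact1 downward, where 9.94% of 14909 genes were called upward and 6.89% downward. For Csgalnact1 the difference was −1.07 (SE 0.341, adjusted p = 0.0492), close to the threshold. It was called in 3 of the 14 fits with a library omitted, those without day 3 cKO replicate 1, 3 or 4, and lost in the other 11, with values from −1.22 to −0.83 and adjusted p from 0.000146 to 0.12. Xylt1 had a difference of similar size, −1.06, that did not pass (SE 0.704, adjusted p = 0.339), but it passed without day 3 cKO replicate 4 (−0.70, adjusted p = 0.0258). The Papss2 difference of −0.69 did not pass either (95% interval −1.49 to 0.12, adjusted p = 0.236). For Chst11 and Slc26a2 the differences were 0.02 (95% interval −0.39 to 0.42) and 0.10 (95% interval −0.71 to 0.92).

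Ratios between paired enzymes were taken within each library, where the scaling of the library cancels. A drop in such a log2 ratio means that the first gene fell relative to the second. At day 3 the log2 ratio of Xylt1 to Xylt2 was 4.65 ± 0.359 in controls and 1.78 ± 1.78 in cKO (SD, n = 4 each), and that of Csgalnact1 to Csgalnact2 was 2.71 ± 0.0866 and 0.38 ± 0.752. The differences of −2.86 and −2.33, and that of −1.65 for Papss2 to Papss1, reached the smallest p that 4 against 4 samples allow in an exact two-sided permutation test (p = 0.0286 each), and were 0.143 after adjustment over the 15 tests of this family. Without day 3 cKO replicate 4 the differences were −1.98 for Xylt1, −1.96 for Csgalnact1 and −1.40 for Papss2.

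The ratio of the sulfotransferases followed the same direction in the cultures. The log2 ratio of Chst11 to Chst3 was 6.30 ± 0.0438 in day 0 controls and 4.90 ± 0.142 in day 0 cKO (SD, n = 3 each). With 3 against 3 samples the smallest possible exact permutation p is 0.1, which was reached at day 0 by the ratios for Chst11 (difference −1.40), Xylt1 (−1.42), Csgalnact1 (−1.11) and Papss2 (−1.11), with p = 0.167 after adjustment for each. At day 3 the Chst11 to Chst3 difference was −1.38, with 1 cKO library inside the range of the controls (exact permutation p = 0.0571, adjusted p = 0.167), and −1.69 without cKO replicate 4. For Chsy1 to Chsy3 the difference was −0.18 at day 0 and 0.56 at day 3, and in cartilage the 5 differences lay between −0.19 and 0.44, with exact permutation p of 0.114 or above. None of the 15 passed after adjustment. With these sample sizes a pass needed nearly all tests of 4 against 4 samples to reach their smallest p together. The adjusted values therefore cannot decide whether a ratio differed, and no conclusion is drawn from them.

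**Figure D5:**
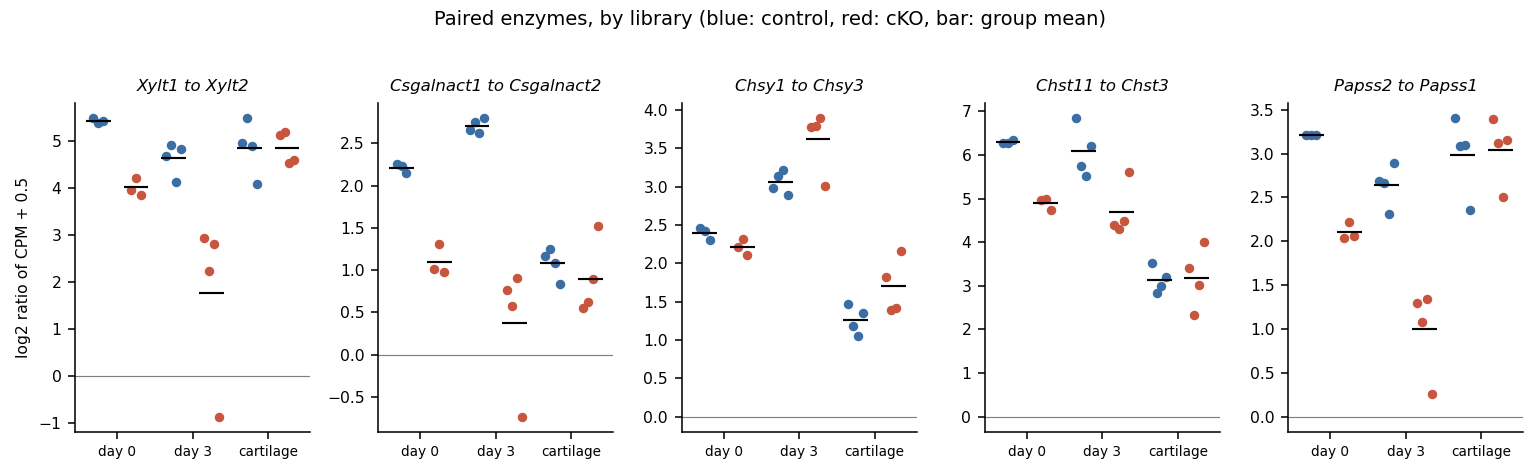
Log2 ratio of the levels of paired enzymes (CPM plus 0.5) in each library on the vertical axes, which differ between panels, for day 0 cultures, day 3 cultures and cartilage, with control libraries in blue, cKO libraries in red and group means as bars. The ratios of Xylt1, Csgalnact1 and Papss2 to their relatives lie lower in every cKO culture library than in every control of the same day, and the groups overlap in cartilage.

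Other genes of the pathway were read from lists of the remaining steps. Counts of calls in these lists are to be read beside the shares over all genes tested. Those were 31.6% lower and 33% higher at day 0, and 22.6% lower and 25.5% higher at day 3. Of 5 other genes of the linker region, 4 were lower and 1 higher in cKO at day 0, and 3 lower and 1 higher at day 3. Fam20b, the kinase that phosphorylates the linker xylose, fell at both days, with log2 fold changes of −0.89 (adjusted p = 8.47e-07) and −1.005 (adjusted p = 0.000116). Pxylp1, the phosphatase that removes this phosphate, had log2 fold changes of 1.25 at day 0 (adjusted p = 1.28e-05) and 2.80 at day 3 (adjusted p = 1.07e-05). The linker galactosyltransferase B4galt7 fell at both days (−0.80 and −0.60, adjusted p = 6.11e-07 and 0.0134), as did B3galt6 (−0.73 and −0.47, adjusted p = 4.5e-05 and 0.0444). The day 3 call of B3galt6 was lost in 6 of 8 fits with a library omitted (without control replicate 1, 2 or 4, or cKO replicate 1, 2 or 3).

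The chain polymerisation partners Chpf2 and Chpf, which work with the synthases, fell at day 0 (−0.57 and −0.49, adjusted p = 6.96e-07 and 3.07e-06), and 0 of these 2 genes were called at day 3, where their log2 fold changes were between 0.08 and 0.09. The day 0 call of Chpf was lost in the fit of all 14 culture samples (−0.49, adjusted p = 0.0742). Of 14 other genes of sulfate and nucleotide sugar supply, 13 were tested in the cultures, with 9 lower and 1 higher at day 0 and 9 lower and 0 higher at day 3. Gfpt2, an enzyme of amino sugar synthesis, fell at both days (day 0 −1.73, adjusted p = 1.81e-08; day 3 −1.77, adjusted p = 0.00696), and Slc35d1, which brings nucleotide sugars into the secretory pathway, did so too (−1.13, adjusted p = 5.15e-08, and −1.17, adjusted p = 0.000173). The median of this supply list was −0.49 at day 0 and −0.46 at day 3, between that of the members and that of all genes.

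The remaining sulfotransferases and epimerases of chondroitin and dermatan sulfate did not move as a group. Of 7 tested in each culture, 3 were lower and 1 higher at day 0, and 2 lower and 2 higher at day 3. Ust, the uronyl 2-sulfotransferase, fell by 0.80 at day 0 (adjusted p = 0.000116) and fell by 1.15 at day 3 (adjusted p = 0.00023). Chst7, a 6-O-sulfotransferase like Chst3, was higher in cKO at day 0, with a log2 fold change of 1.03 (adjusted p = 9.05e-05), and lower at day 3, with −0.61 (adjusted p = 0.0164). The genes called higher in cKO at day 3 were Chst12 (0.62, adjusted p = 0.00874) and Dse (0.28, adjusted p = 0.00653). Of 12 genes tested in a breakdown list, 6 were lower and 5 higher at day 0, and 3 and 4 at day 3. Its medians were −0.01 and 0.20. The list was drawn up for chondroitin sulfate but also holds genes that act on heparan sulfate, Sulf1 and Sulf2 among them.

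Lists for the other sugar chains were mixed as well. Over all genes tested, 31.6% were called lower and 33% higher at day 0, and 22.6% and 25.5% at day 3. Of 16 genes of heparan sulfate synthesis tested, 9 were lower and 4 higher at day 0, and 5 lower and 4 higher at day 3. Extl1, of the exostosin family, fell by 2.14 at day 0 (adjusted p = 6.15e-07) and fell by 2.85 at day 3 (adjusted p = 4.41e-05), and Hs3st3b1, a heparan sulfate 3-O-sulfotransferase, fell as well (−1.07, adjusted p = 1.11e-05, and −1.89, adjusted p = 6.79e-05). The largest change of this list went the other way. Hs3st1 was higher in cKO, by 5.10 at day 0 (adjusted p = 9.49e-07) and by 6.64 at day 3 (adjusted p = 4.38e-05). Its mean level was low, at a log2 CPM of 1.21 and 1.88. For keratan sulfate, 3 of 7 genes tested were lower and 3 higher at day 0, and 2 of 6 were lower and 2 higher at day 3. Of the proteoglycan core proteins, 6 of 13 tested were lower and 4 higher at day 0, and 4 of 11 were lower and 2 higher at day 3. Cspg4, a membrane chondroitin sulfate proteoglycan, fell by 1.07 at day 0 (adjusted p = 3.59e-08) and fell by 2.13 at day 3 (adjusted p = 1.08e-05). Spock2, another core protein gene, was higher in cKO at day 3, with a log2 fold change of 2.80 (adjusted p = 5.05e-05). In cartilage, edgeR called 0 of 5 linker, 1 polymerisation, 6 sulfotransferase and 12 supply genes tested. It also called 0 of 10 heparan sulfate, 4 keratan sulfate and 8 core protein genes. Over all 8793 genes tested, 3.04% were called lower and 3.15% higher, so 0 calls in lists this short is near that share. In the breakdown list, 1 of 9 genes tested was called. This was Sulf2, an extracellular sulfatase of heparan sulfate, which fell by 0.57 (SE 0.135, adjusted p = 0.0202). The Sulf2 call was lost without control replicate 2 or 4 or cKO replicate 1 or 4, with adjusted p up to 0.0769.

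Genes with the most similar profile were found among 12287 genes by Pearson's r of log2 CPM over the 14 culture libraries, which share genotype, day and depth, so that r describes these groups and is given with no p. The closest genes were Col9a1 and Ucma for Xylt1 (r of 0.996 each), both of them genes of cartilage matrix. Csgalnact1 was closest to Phyh (0.994) and Zim1 (0.99), and Slc26a2 to Lmo4 (0.995) and Gfpt2 (0.99). Chst11 was closest to Papss1 (0.992) and Gfpt1 (0.988), which both belong to the supply list. Papss2 was closest to Kdelc1 (0.994) and Gm5345 (0.992), and Chsy3 to Galnt3 (0.986) and Usp6nl (0.984).

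Among the members themselves, r between Papss2 and Chst11 was 0.971 and between Papss2 and Slc26a2 0.968. It was 0.964 between Papss2 and Csgalnact1 and 0.956 between Xylt1 and Slc26a2. These genes were all among those called lower in cKO at both days. Xylt2 had an r of −0.389 with Xylt1, and Chsy3 had its highest r, 0.917, with Csgalnact2. Chsy1 had r from −0.129 to 0.704 with the other 9 members over the 14 libraries.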

How the data were processed

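RNA of 22 mouse samples was counted per gene. The culture tables hold estimated counts per gene, not all of them whole numbers, as deposited by the authors, and per the labels their libraries came from a strand-specific kit. The aligner and counter of the cultures are not given in the sources used here. The cartilage libraries were 3′ BRB-seq with molecular identifiers, per the labels' protocols. The main cartilage table holds whole-number counts, and a second one holds estimated counts, both as deposited by the authors. Per the submitters' processing notes, the build was GRCm38, and UMI-tools 1.1.1, Trim Galore 0.6.7, HISAT2 2.2.1, featureCounts 2.0.1 and DESeq2 1.34.0 are named for the cartilage samples, with no statement of which made which table. Levels of different genes were ranked only per length and only in the cultures, since 3′ counts do not scale with length. The ratios of paired enzymes were taken without regard to length, in cartilage too, and were compared between genotypes of the same setting.

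Samples were grouped by the labelled genotype and day. Genes were tested with edgeR 4.0.16 (R 4.3.3, limma 3.58.1), with TMM scaling, a low-count filter (filterByExpr, minimum count 10) and the quasi-likelihood test. Benjamini-Hochberg adjustment ran over all genes tested, with 0.05 as the threshold of a call. Day 0, day 3 and cartilage were fitted separately, cartilage with sex as a covariate, and the day changes and interaction were fitted on all 14 culture samples. Ratios used CPM plus 0.5 and exact two-sided permutation tests. CPM in the text is TMM-scaled, over the 14 culture libraries together and over the 8 cartilage libraries. Symbols were found for 34582 of 34866 culture identifiers. Estimated counts, those of the cultures included, were rounded to whole numbers for the tests. The test scripts were tested on simulated data. Alternatives were DESeq2 1.42.0, other scalings, no filter, the replicate number as a block, all 14 cultures in 1 fit, no sex covariate, a pseudocount of 0.1 and each library left out.

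The members and the gene lists were chosen with earlier results of these data known. Besides the 10 members, the text could name Dnmt1, Sox9, Col2a1 and Acan, from each other pathway list up to 4 called genes per genotype comparison with the largest change and a mean log2 CPM of 1 or more, and for each member called in both cultures the 2 genes with the most similar profile. Other genes named, such as the partner values at the other day, were chosen after their values were seen.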

Additional observations from a re-analysis of the deposited data

Results flagged for a closer look

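Csgalnact2 in cartilage had 1 cKO library, replicate 1, at 80.61 CPM, with the other 3 cKO libraries at 48.17 to 53.35 CPM. The gap to the nearest of the others was 0.84 of the group's range, just over Dixon's 95% critical value for 4 samples. It was the single such library in 40 groups of member values tested, where chance gives about 2.

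The genotype effect of Chsy1 differed between the days by 0.856 on the log2 scale in the test of the difference itself, from a fall at day 0 to a value near 0 at day 3. That of Csgalnact1 differed by −1.066, with a larger fall at day 3. The day 3 value of Csgalnact1 includes cKO replicate 4, whose level of 35.5 CPM was the lowest of its group, and without it the difference was −0.827.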

How the results depend on the processing

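The genotype calls of the members held best in the cultures. At day 3 the count of 6 members called was the same in every alternative run. At day 0 it was 8, and 7 with library totals or all 14 samples in 1 fit, in both cases without Csgalnact2. Over all alternatives, 1023 of the member values kept direction and side of the threshold, 43 lost the call, 6 gained it and 46 changed sign, while 121 ratio values kept and 9 changed sign. No sign change was of a called value. The causes were not tested.

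In cartilage the count of members called was 1, Chsy3, with no low-count filter, and between 0 and 1 with a library left out. The count for the difference between days was 1 with library totals and with no low-count filter, and between 1 and 3 with a library left out. The count of the day change was 4 with library totals in controls and 7 in cKO, and 4 to 8 and 6 to 8 with a library left out. Library totals moved the median of all genes to 0.116 at day 0, 0.119 for the day change in controls and 0.11 in cKO. With that scaling Xylt2 was at 0.064 at day 0, below that median, Chsy1 at 0.028 at day 3 and Chst3 at 0.043 for the day change in cKO. Chst11 was at −0.009 for the difference between days and 0.024 for that between sexes. With the estimated cartilage counts, Xylt2 was at −0.118 for the difference between sexes and the Chst11 to Chst3 ratio in cartilage at −0.093.

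The replicate number as a block was also fitted, though the numbers did not pair the samples. Deviations of same-numbered samples correlated at −0.047, −0.063 and 0.14 at day 0, −0.145 to −0.064 at day 3 and −0.082 to 0.265 in cartilage, and the best match was the own number for 1 of 3, 0 of 4 and 2 of 4. Under the block 8 members were called at day 0, 6 at day 3, 1 in cartilage (Chsy3, −0.62, adjusted p = 0.0336), 4 and 7 for the day change in controls and cKO, 2 for the difference between days and 0 for that between sexes. Chst3 was at 0.057 and 0.06 for the day change in controls and cKO under the block.

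With 1 library left out at a time, values that changed sign had these ranges. At day 3 they were −0.18 to 0.022 for Xylt2, −0.131 to 0.047 for Chsy1 and −0.284 to 0.196 for Chst3, and in cartilage −0.168 to 0.192 for Csgalnact1. The day change of Chst3 ran from −0.294 to 0.017 in controls and from −0.299 to 0.226 in cKO. The difference between days ran from −0.138 to 0.047 for Xylt2, −0.015 to 0.182 for Chsy3, −0.122 to 0.381 for Chst3, −0.101 to 0.124 for Chst11 and −0.04 to 0.349 for Slc26a2. That between sexes ran from −0.056 to 0.494 for Xylt1, −0.382 to 0.429 for Xylt2, −0.386 to 0.452 for Chsy3, −0.349 to 0.198 for Chst11, −0.1 to 0.508 for Slc26a2 and −0.244 to 0.491 for Papss2. Log2 ratios in cartilage ran from −0.22 to 0.338 for Chst11 to Chst3, −0.254 to 0.219 for Xylt1 to Xylt2 and −0.151 to 0.239 for Papss2 to Papss1.

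The number of genes called over the whole table was 10023 at day 0 and 6260 with all 14 samples in 1 fit. In cartilage it was 544, with 357 by DESeq2 and 1044 with no filter. For the difference between days it was 2509, 1591 without day 0 control replicate 2 and 4051 without day 3 cKO replicate 4. Cartilage depth limits Xylt2, Chst3 and other low genes, with 8 counts as the lowest of a member.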
